A study of Mus musculus with 5 samples.

Results

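The genes described here are 10 members of the ETS family of transcription factors, namely ETV3L, Etv3, Erf, Etv1, Etv4, Etv5, Etv6, Ets1, Ets2 and Elk1, out of 55385 genes counted. They were found by their gene symbol in the count files. ETV3L and Etv3 were selected on their high counts 4 h after seizure onset, and the other 8 were taken for comparison. The values of ETV3L and Etv3 at 4 h are therefore a description and carry no test. Hippocampal RNA of 3 month old male C57/bl6 mice was sequenced in 5 libraries. The control group was 1 library of untreated mice (0 h). The seizure groups had been injected intraperitoneally with 20 mg/kg kainic acid, an agonist of glutamate receptors, and were sacrificed 1 h (1 library), 4 h (2 libraries, replicate 1 and replicate 2) or 8 h (1 library) after the onset of seizures. According to the methods of the study, only kainic acid mice with continuous rearing and falling were used, so that lower stages of its seizure scale are not represented. The control was untreated, so that injection, seizure and kainic acid cannot be told apart. The sources used here do not give the number of mice behind a library.

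ETS proteins bind DNA through a conserved domain that recognises the core GGAA. Many of them lie downstream of the ERK cascade, in which kinases pass a signal from receptors at the cell surface to the nucleus. Phosphorylation by ERK turns ternary complex factors such as ELK1 into activators of immediate early genes, and it removes the repressor ERF from the nucleus. In neurons, ERK signalling is switched on by glutamate receptors and calcium entry.

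Reads on genes amounted to 19100374 in the control, 17744508 at 1 h, 18250114 and 19109204 in replicates 1 and 2 at 4 h, and 16612225 at 8 h. Levels are given as normalized CPM, which are counts divided by the library total after scaling with the TMM method of edgeR. A count of 3, taken as the floor of detection, corresponded to 0.151 normalized CPM in the control and 0.178 in replicate 1 at 4 h. Intervals on single libraries are exact 95% intervals (Poisson for a level, Clopper-Pearson for a ratio of counts), and they cover counting error only. As the tissue was sequenced in bulk, fewer cells of a type and less RNA per cell cannot be told apart.

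The labels were set beside 12 genes known to be induced by neuronal activity, a list chosen with earlier results of these data known. Their summed level, led by Homer1, was 542 normalized CPM in the control, 7454 at 1 h, 10206 and 3641 in replicates 1 and 2 at 4 h, and 816 at 8 h. The level of Fos was 10.8 normalized CPM in the control, 999 at 1 h, 519 in replicate 1, 70.4 in replicate 2 and 17.2 at 8 h. The replicates at 4 h thus stood apart, and each of the 12 genes was higher in replicate 1 than in replicate 2. Replicate 1 also lacked most RNA of the choroid plexus, the epithelium that makes cerebrospinal fluid. The 4 choroid plexus markers (Ttr, Kl, Folr1, Kcnj13) summed to 3932 normalized CPM in the control, 1662 at 1 h, 26.4 in replicate 1, 4176 in replicate 2 and 3032 at 8 h. Ttr was the most abundant of them in these sums, and none of the 4 was at 0 in any library. Levels at 4 h are therefore given for each replicate, and fitted changes at 4 h are those of both replicates together unless 1 is named. The part of these differences in the results on ETS genes was not tested.

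**Figure D1:**
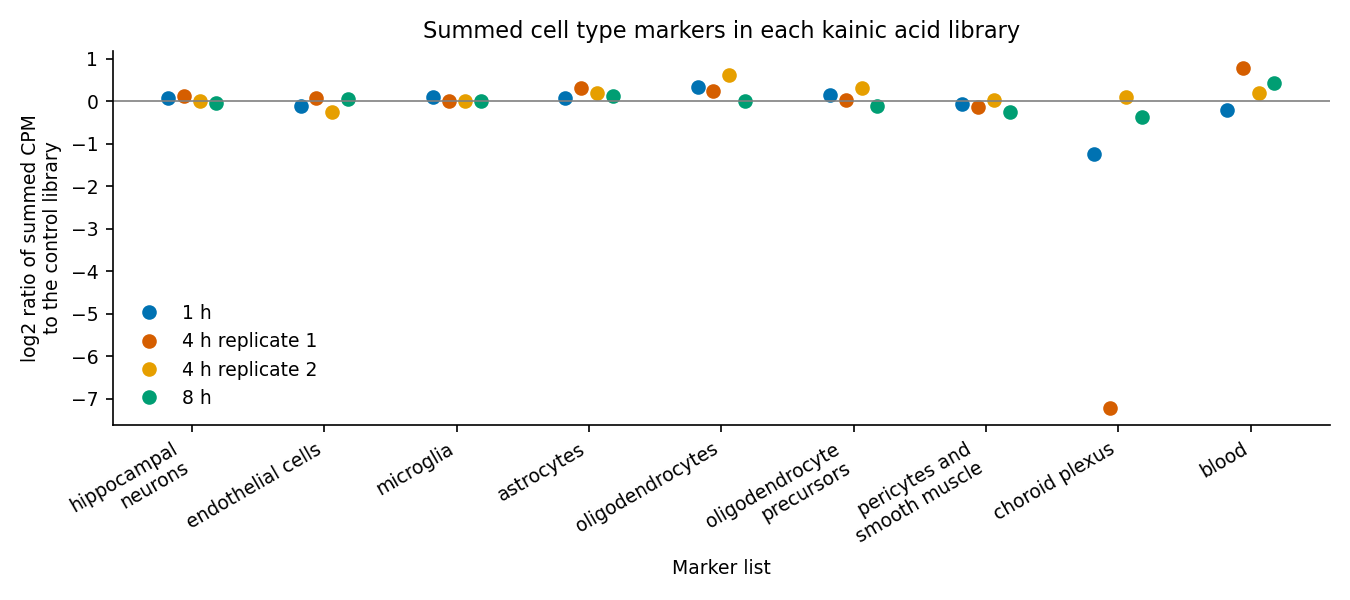
Log2 ratio of the summed normalized CPM of each cell type marker list to the control library (vertical axis) for 9 lists (horizontal axis), with 1 point per kainic acid library. Most lists lie near 0, whereas the choroid plexus list falls to -7.22 in replicate 1 at 4 h and is at 0.09 in replicate 2.

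Neuronal markers were present in every library, as the labelled tissue requires. The 11 markers of hippocampal neurons, led by Snap25, summed to 4640 normalized CPM in the control, 4870 at 1 h, 5058 and 4630 in the 4 h replicates and 4459 at 8 h. This sum covers members that went opposite ways at 4 h, as Neurod6 had 144 normalized CPM in the control and 60.9 and 67.1 in replicates 1 and 2, and Gad1 had 256 in the control and 515 and 379 in these replicates (both picked after their values were seen).

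Etv3 encodes a repressor of the ETS family that belongs to the same group as ERF. Etv3 (ENSMUSG00000003382.18) lies at chr3:87525407-87540156 of GRCm38 on the plus strand, with 5 transcripts in GENCODE M21 and no exon shared with another gene. ETV3L (ENSMUSG00000118505.1) has an identifier that GENCODE M21 does not hold. By its symbol alone it was matched to Etv3l of RefSeq (GRCm38.p6), a protein-coding gene at chr3:87549887-87561105, which begins 9728 bases after the end of RefSeq's Etv3. GENCODE M21 annotates at Etv3l only a pseudogene with a transcript of 325 bases, and this transcript shares an identical stretch of 199 bases with Etv3. Reads that lie wholly in such a stretch align more than once, and reads aligned more than once were reported apart from the gene counts. Counts of both genes are to this extent uncertain, and no exon length is known here for ETV3L, so that its level cannot be compared with other genes per length.

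The promoter windows of RefSeq (GRCm38.p6, from 250 bases before to 50 after an annotated start) were searched on both strands for letters bound by factors of the activity response. These were the ETS core GGAA, the cAMP response element TGACGTCA, its short form TGACG, which is contained in it, and the CArG box of serum response factor. Windows were found for 8 of the 10 members, and for some members there was more than 1, giving 10 windows in all. Etv4 and Ets1 had none. GGAA occurs in 96.0% of all 32851 windows and in 9 of these 10. TGACG occurs in 20.8% of all windows and in those of Etv3, Erf, Etv6 and Ets2, which are 4 of the 10. TGACGTCA (1.79% of all windows) and the CArG box (1.63%) occur in 0 of the 10. The stretches of 30 bases around TGACG are shown for these 4 genes, chosen after the values were seen. Capitals mark TGACG, which reads CGTCA where it lies on the opposite strand. The window of Etv3l was set around a start that lies inside the RefSeq gene and not at its first base. It holds no TGACG, and the GGAA nearest to that inner start is in capitals.
Etv3: ccagagtggaagTGACGaaagccgccgcgg
Erf: gcgacgcggcggTGACGtcgccggccgggg
Etv6: gctgggaattcaCGTCAgtttctgccctga
Ets2: ccgcgctctctcCGTCAcccctgctgtccc
Etv3l: cagccaccccacaGGAAgagcccctactct
The Etv3 stretch lies at chr3:87525550-87525579 on the plus strand, and its motif begins 16 bases before the RefSeq start, 1 base behind a GGAA core. GENCODE M21 places this stretch in an exon of Etv3, and that of Ets2 (chr16:95702363-95702392, plus strand) in an exon of Ets2. The stretches of Erf (chr7:25250789-25250818, minus strand), Etv6 (chr6:134035635-134035664, plus strand) and Etv3l (chr3:87549991-87550020, plus strand) lie outside the exons of GENCODE M21. The Etv3l stretch lies inside the RefSeq gene, and whether it falls in a RefSeq exon was not tested. The matches are a description of letters and were not tested for binding.

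Etv3 was counted in every library. The level of Etv3 was 38.8 normalized CPM in the control (772 counts, interval 36.1 to 41.6). It was 81.5 at 1 h (77.4 to 85.9), 295 in replicate 1 at 4 h (286 to 303), 210 in replicate 2 at 4 h (203 to 217) and 77.2 at 8 h (73.1 to 81.4). All 4 kainic acid libraries lay above the control, and both 4 h libraries lay above those of 1 h and 8 h. The ratio to the control was 2.10 at 1 h (1.92 to 2.30), 7.59 and 5.41 in replicates 1 and 2 at 4 h, and 1.99 at 8 h (1.82 to 2.18). On the log2 scale the change fitted at 4 h was 2.70, with 2.92 from replicate 1 alone and 2.43 from replicate 2 alone.

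ETV3L was close to absent in the control and at 1 h. The counts of ETV3L were 1 in the control, 2 at 1 h, 963 and 982 in replicates 1 and 2 at 4 h, and 365 at 8 h. These correspond to 0.0502 normalized CPM (0.00127 to 0.280) in the control and 0.114 (0.0138 to 0.411) at 1 h, both under the floor. They correspond to 57.2 (53.6 to 60.9) and 51.9 (48.7 to 55.3) at 4 h and to 20.8 (18.7 to 23.1) at 8 h. Replicate 1 over replicate 2 was 1.10 (1.01 to 1.20) for ETV3L and 1.40 (1.35 to 1.46) for Etv3. The ratio to the single control count was 1138 (204 to 45007) in replicate 1, 1034 (185 to 40866) in replicate 2 and 414 (73.9 to 16412) at 8 h.

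Etv3 and ETV3L had different ratios of 8 h to 1 h. The selection names 4 h only, but it was made with earlier results of these data known. Etv3 was at nearly the same level at 1 h and 8 h, with a ratio of 8 h to 1 h of 0.947 (0.878 to 1.02). For ETV3L the same ratio was 183 (50.3 to 1517). Per 100 counts of Etv3 there were 0.130 counts of ETV3L in the control (0.00328 to 0.724) and 0.140 at 1 h (0.0169 to 0.505). At 4 h there were 19.4 in replicate 1 (18.1 to 20.8) and 24.7 in replicate 2 (23.0 to 26.5), and at 8 h there were 27.0 (24.0 to 30.3). All of these values are a description, because the selection rests on the control and 4 h and earlier results of these data were known. The part of Etv3 reads assigned to ETV3L was not tested. The comparison of 8 h with 1 h was chosen after the values were seen and has no replicates.

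**Figure D2:**
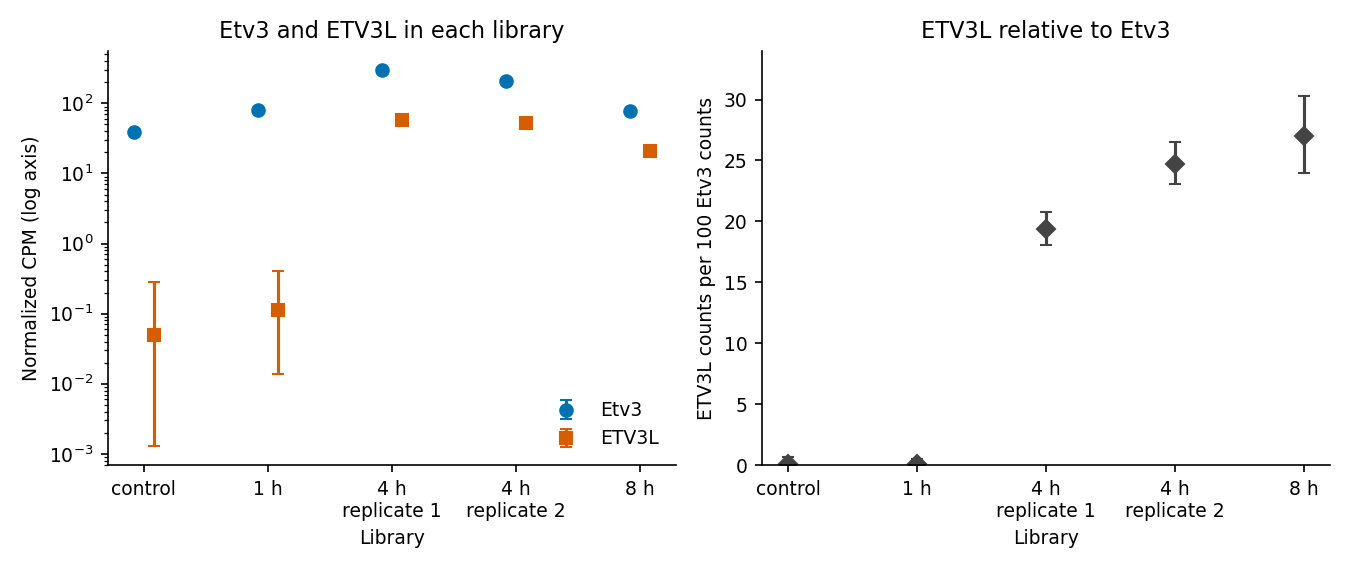
Left, normalized CPM of Etv3 (circles) and ETV3L (squares) in each of the 5 libraries on a log axis, and right, ETV3L counts per 100 Etv3 counts on a linear axis. Bars are exact 95% counting intervals and are hidden by the symbols where narrow. Etv3 is at 81.5 and 77.2 normalized CPM at 1 h and 8 h, whereas ETV3L is at 0.114 and 20.8.

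All time points were compared with the control in a quasi-likelihood test of edgeR, with the p values of 19768 genes adjusted after Benjamini-Hochberg. Only the pair at 4 h is replicated, which leaves the fit 1 residual degree of freedom, so that the single libraries were taken to vary as this pair does. The p values measure only the spread between these libraries, which may be technical. The 3 comparisons share the control library, and so does the selection of ETV3L and Etv3, so that a low value in this library would raise their changes at 1 h and 8 h as well. With an adjusted p under 0.05, edgeR called 0 genes at 1 h (0%) as well as at 8 h (0%), and at 4 h it called 1 gene (0.00506%). At 1 h, 4 h and 8 h in this order, 478, 2291 and 892 genes had an unadjusted p under 0.05, DESeq2 called 46, 216 and 31 genes, and limma-voom called 0 at each time point. The single gene called by edgeR at 4 h was ETV3L, from whose 4 h counts it had been selected, and nothing is read from this call.

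All 10 members passed the expression filter, ETV3L through its counts at 4 h and 8 h. Members were counted among the 8 comparison genes only, because ETV3L and Etv3 had been selected for high counts over the same control. At 1 h, 1 of the 8 had a higher level with an unadjusted p under 0.05, Erf, compared with 2.1% of all genes, and 0 had a lower one (0.319% of all genes). At 4 h it was found for Ets2 with a higher level (7.21% of all genes) and for Elk1 with a lower level (4.38%). At 8 h it was found for 0 of the 8 with a higher (2.39% of all genes) or a lower level (2.12%). None of these passed the adjusted threshold in edgeR's quasi-likelihood test.

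The p values of ETV3L and Etv3 at 1 h and 8 h are not free of this selection. For Etv3 the log2 fold change was 1.07 ± 0.28 (SE) at 1 h, with an adjusted p of 1 by edgeR (quasi-likelihood, Benjamini-Hochberg) (unadjusted p = 0.0113). At 8 h the log2 fold change of Etv3 was 0.99 ± 0.28, with an adjusted p of 0.999 in the same edgeR test (unadjusted p = 0.0153). For ETV3L at 8 h, edgeR (quasi-likelihood, Benjamini-Hochberg) gave an adjusted p of 0.0989 (unadjusted p = 5e-06). The adjusted p of ETV3L at 8 h depended on the tool, with 0.000134 by DESeq2 and 0.900 by limma-voom, and it lay between 7.13e-43 and 0.900 over all settings. The fitted log2 fold change of 7.03 rests on 1 control count and moved to 8.51 with a smaller prior count.

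Erf encodes a repressor of the same ETS group as ETV3, which leaves the nucleus when ERK phosphorylates it. Erf (ENSMUSG00000040857.15, chr7:25242561-25250761 of GRCm38, minus strand) had a level of 22.3 normalized CPM in the control, 52.1 at 1 h, 51.9 and 27.1 in replicates 1 and 2 at 4 h and 20.7 at 8 h. The level at 1 h and in replicate 1 was more than double that of the control, whereas replicate 2 and 8 h were closer to it. The ratio to the control was 2.34 (2.08 to 2.62) at 1 h, 2.33 (2.07 to 2.61) in replicate 1, 1.21 (1.07 to 1.38) in replicate 2 and 0.928 (0.806 to 1.07) at 8 h. At 1 h the log2 fold change was 1.22 ± 0.47 (SE), with an adjusted p of 1 by edgeR (quasi-likelihood, Benjamini-Hochberg) (unadjusted p = 0.0441). At 4 h the fitted log2 fold change of 0.82 depended on the library, with 1.21 from replicate 1 alone and 0.28 from replicate 2 alone. Erf was thus high at 1 h, when ETV3L was not detectable above the floor, and back at the control level at 8 h, when ETV3L was still counted.

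Etv6 encodes another repressor, which forms polymers through its pointed domain. Etv6 had 11.1 normalized CPM in the control, 12.8 at 1 h, 19.5 in replicate 1 and 9.81 at 8 h, and in replicate 2 its 208 counts lay next to the 220 of the control. The interval of the ratio to the control excluded 1 in replicate 1 only, at 1.76 (1.48 to 2.10), and the ratio was 1.16 (0.957 to 1.40) at 1 h and 0.995 (0.819 to 1.21) in replicate 2. At 4 h the fitted value was 0.46 ± 0.40 in log2 (SE, adjusted p = 0.687 by edgeR (quasi-likelihood, Benjamini-Hochberg)), and without replicate 1 it was -0.01.

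Ets2 and Ets1 encode activators that ERK phosphorylates next to their pointed domain. Ets2 (ENSMUSG00000022895.16, chr16:95702075-95721051, plus strand) had 78.4 normalized CPM in the control, 90.2 at 1 h, 186 and 144 in replicates 1 and 2 at 4 h and 80.5 at 8 h. Both 4 h libraries lay above the 3 others, and the counting intervals of the control and 8 h overlapped. The ratio to the control was 2.37 (2.23 to 2.52) in replicate 1 and 1.84 (1.73 to 1.96) in replicate 2. At 4 h the fitted log2 fold change was 1.07 ± 0.22 (SE), with an adjusted p of 0.272 by edgeR (quasi-likelihood, Benjamini-Hochberg) (unadjusted p = 0.00376). Ets1, which is known from endothelial cells and lymphocytes, had between 12.7 normalized CPM (replicate 2) and 16.2 (control), and its interval of the ratio to the control excluded 1 in replicate 2 only, at 0.782 (0.659 to 0.927). The 10 endothelial markers, led by Flt1, summed to 181 normalized CPM in the control, 166 at 1 h, 189 and 152 in the 4 h replicates and 187 at 8 h, with none at 0. Their members went opposite ways, with 5 above and 5 below 0 in the fit at 4 h, and Flt1 had ratios to the control of 1.75 and 0.959 in replicates 1 and 2 whereas Slco1a4 (picked after its values were seen) had 0.247 and 0.617. Their part in the values of Ets1 was not tested.

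Elk1 encodes a ternary complex factor, which binds with serum response factor at immediate early genes. Elk1 (ENSMUSG00000009406.13, chrX:20933395-20950608, minus strand) had 45.1 normalized CPM in the control, 37.7 at 1 h, 26.0 and 28.9 in replicates 1 and 2 at 4 h and 47.5 at 8 h. Both 4 h libraries were the lowest, and the level at 8 h was again that of the control within counting error. The ratio to the control was 0.576 (0.512 to 0.646) in replicate 1, 0.642 (0.576 to 0.715) in replicate 2 and 1.05 (0.957 to 1.16) at 8 h. At 4 h the fitted log2 fold change was -0.71 ± 0.20 (SE), with an adjusted p of 0.347 by edgeR (quasi-likelihood, Benjamini-Hochberg) (unadjusted p = 0.0141). Elk1 and Ets2 therefore lay on opposite sides of the control in both replicates.

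Etv1, Etv4 and Etv5 form the PEA3 group of activators, which respond to growth factor signalling through ERK. Etv5 had 66.2 normalized CPM in the control, 89.3 at 1 h, 90.6 and 78.6 in the 4 h replicates and 61.7 at 8 h. Relative to the control, Etv5 was at 1.35 (1.25 to 1.45) at 1 h and at 1.37 (1.27 to 1.47) and 1.19 (1.10 to 1.28) in the 4 h replicates, and it was 0.931 (0.858 to 1.01) at 8 h. Etv1 had 76.3 normalized CPM in the control, 74.8 at 1 h, 75.9 and 64.0 in the 4 h replicates and 58.2 at 8 h, and its ratio to the control was 0.995 (0.923 to 1.07) in replicate 1, 0.839 (0.777 to 0.905) in replicate 2 and 0.764 (0.705 to 0.827) at 8 h. Etv4 was the lowest of the 3, between 4.22 and 5.12 normalized CPM, and all its intervals of the ratio to the control included 1. None of the 3 had an unadjusted p under 0.05 at any time point in edgeR's test.

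**Figure D3:**
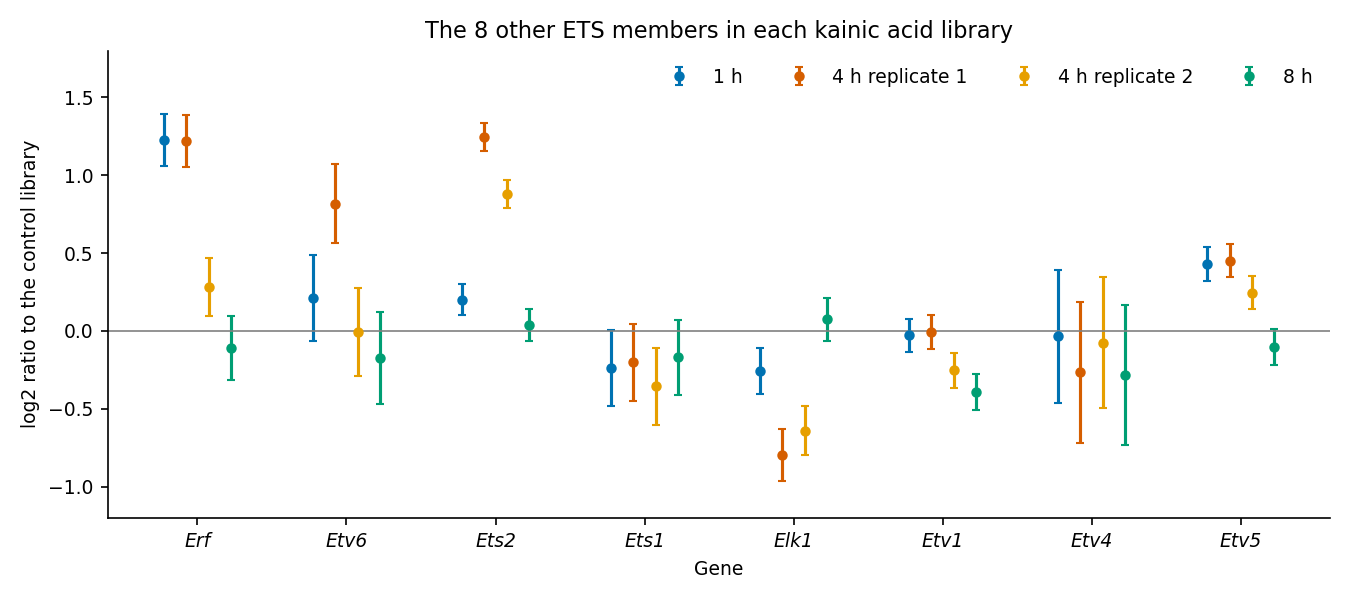
Log2 ratio of the normalized level to the control library (vertical axis) for the 8 comparison members (horizontal axis), with 1 point per kainic acid library and exact 95% counting intervals as bars. Ets2 lies above 0 and Elk1 below 0 in both 4 h replicates, and Erf and Etv6 differ between the replicates.

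The order of levels between genes was compared per kilobase of exon length (normalized CPM per kb), for the 9 members with exons in GENCODE M21. Exons of all transcripts of a gene were merged, giving 13.3 kb for Etv1 and 3.61 kb for Erf, so that the order depends on the annotation. In the control the order was Etv5 (16.1), Ets2 (13.6), Elk1 (8.38), Erf (6.18), Etv1 (5.74), Etv3 (3.78), Ets1 (1.91), Etv6 (1.85) and Etv4 (1.65). The counting intervals of Erf and Etv1 overlapped, as did those of Ets1, Etv6 and Etv4. In replicate 1 at 4 h the highest levels per kb were those of Ets2 (32.2), Etv3 (28.7) and Etv5 (22.1), and in replicate 2 they were those of Ets2 (24.9), Etv3 (20.4) and Etv5 (19.2). Etv3 thus stood directly behind Ets2 in both, while the intervals of Etv3 and Etv5 overlapped in replicate 2. At 8 h the level of Etv3 was 7.51 per kb, between Elk1 (8.82) and Erf (5.74).

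The mouse ETS family holds 27 genes in the files, of which 20 passed the filter. Of the 18 tested genes other than ETV3L and Etv3, 0 were called after adjustment by edgeR at any time point. An unadjusted p under 0.05 was found for 1 of the 18 with a higher level at 1 h (Erf, all genes 2.1%), for 2 with a higher (Ets2 and Elk4, all genes 7.21%) and 1 with a lower level (Elk1, all genes 4.38%) at 4 h, and for 0 at 8 h. At 1 h, 4 h and 8 h in this order, the 18 had a median log2 fold change of 0.11, 0.19 and 0.01, beside medians over all genes of -0.01, 0.01 and 0.01. At 4 h this median was 0.27 from replicate 1 alone and 0.03 from replicate 2 alone. Elk4, a ternary complex factor like Elk1, had 27.5 normalized CPM in the control, 40.7 at 1 h, 50.9 and 37.5 in the 4 h replicates and 36.0 at 8 h. Within the ternary complex factors, Elk4 was therefore above and Elk1 below the control at 4 h, and Elk3 had between 4.87 and 5.88 normalized CPM. Gabpa, an ETS factor of housekeeping genes, stayed between 37.2 and 42.6 normalized CPM. Spi1, the ETS factor of microglia and other myeloid cells, had between 18 and 41 counts, while the 8 microglial markers, none at 0, summed to between 302 and 322 normalized CPM. This sum too covers members that went opposite ways at 4 h, as the ratio to the control in replicates 1 and 2 was 0.436 and 0.558 for P2ry12 and 1.40 and 1.26 for C1qa (both picked after their values were seen). In edgeR's fit at 4 h, 3 of the 8 were above and 5 below 0. Of these, 0 were higher and 1 was lower with an unadjusted p under 0.05, beside 7.21% and 4.38% of all genes.

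**Figure D4:**
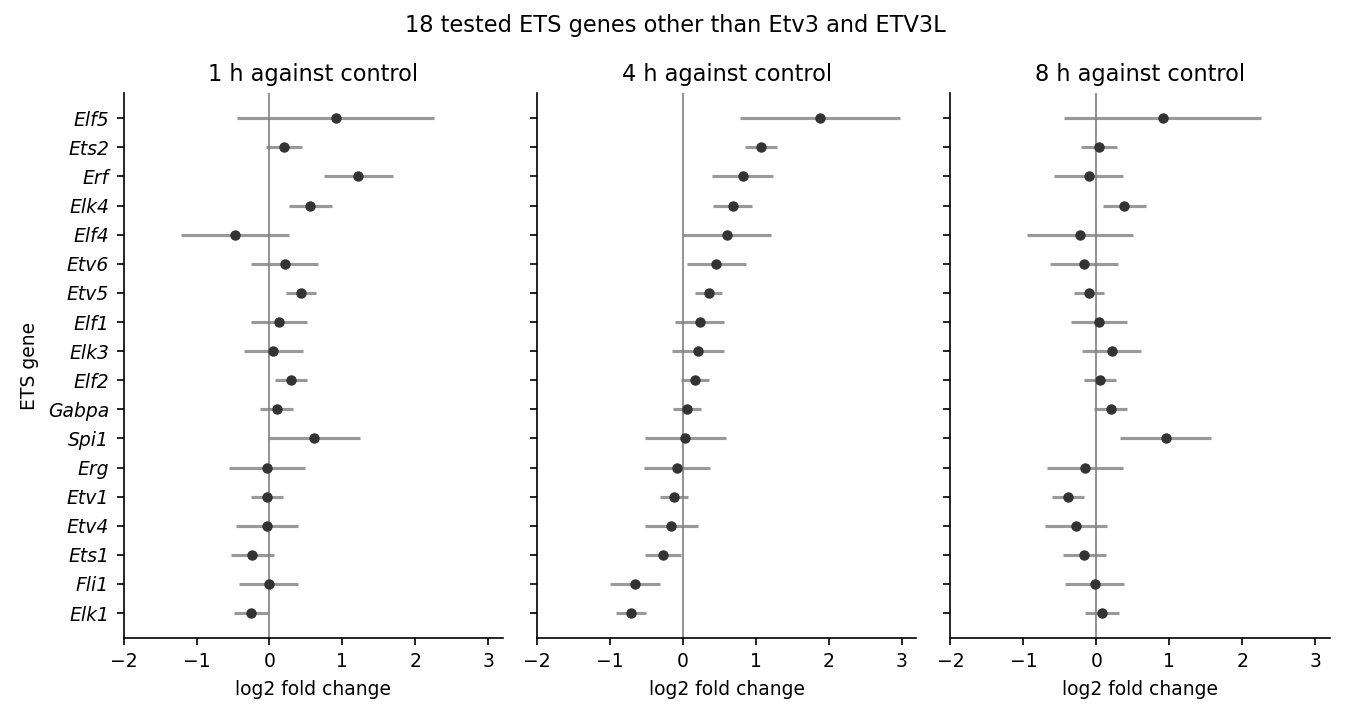
Log2 fold change against the control (horizontal axis) of the 18 tested ETS genes other than Etv3 and ETV3L (vertical axis) at 1 h, 4 h and 8 h, with bars of 1 standard error from edgeR's fit. Ets2 (1.07) and Elk1 (-0.71) lie farthest from 0 in units of their standard error at 4 h, and Elf5, which has 2 counts in the control, has the widest bar.

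The genes around Etv3 and ETV3L did not share their levels. Of the 3 annotated genes before the pair, Cd5l and Fcrl5 had 0 counts in all libraries, where the floor of 3 counts is at most 0.178 normalized CPM, and Fcrl1 had between 3 and 7. Of the 3 after it, Gm25167 and Gm24109 had 0 counts. Arhgef11 had 118 normalized CPM in the control, 128 at 1 h, 87.5 and 88.2 in the 4 h replicates and 124 at 8 h. At 4 h its fitted value was -0.43 ± 0.16 in log2 (SE, adjusted p = 0.408 by edgeR (quasi-likelihood, Benjamini-Hochberg)), on the other side of the control from Etv3 and ETV3L.

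The genes with the pattern nearest to Etv3 and ETV3L were found by the Euclidean distance over the 4 kainic acid libraries between log2 ratios of normalized CPM + 0.5 to the control, among 14325 other genes with at least 50 counts in a library. Nearest to Etv3 were Bag3 (distance 0.435), a co-chaperone, Ptx3 (0.561), a secreted pentraxin, Spsb1 (0.594), Tet3 (0.733), an enzyme that oxidises methylated cytosine, and Mir670hg (0.754). Bag3 had 3.67 normalized CPM in the control, 7.68 at 1 h, 38.4 and 25.4 in the 4 h replicates and 6.73 at 8 h. Nearest to ETV3L were Krt75 (distance 2.45), a keratin, Inhba (2.97), which encodes a subunit of activin, Fndc9, Blnk (4.75), an adaptor of B cell receptor signalling, and Tll1 (5.06), a metalloprotease. As such distances grow with the size of a change and depend on the 0.5 added, those of ETV3L and of Etv3 cannot be compared. Krt75 had 0 counts in the control, 5 at 1 h, 297 and 243 in the 4 h replicates and 276 at 8 h. Etv3 and ETV3L were not among the 5 nearest genes of each other, and nothing is read from this. Their changes at 4 h, on which they were selected, enter the distance and differ in size.

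The genes that feed into ETS factors were described by fixed lists. The core kinases and adaptors of the ERK cascade (16 genes, all tested) summed to 1979 normalized CPM in the control, 2024 at 1 h, 1881 and 1876 in the 4 h replicates and 1947 at 8 h. None was called by edgeR after adjustment, and an unadjusted p under 0.05 was found for 0 at 1 h, for 2 with a higher (all genes 7.21%) and 3 with a lower level (4.38%) at 4 h, and for 1 with a lower level at 8 h (2.12%). The median log2 fold change at 4 h was -0.16 (-0.17 from replicate 1 alone and -0.14 from replicate 2 alone), beside 0.01 over all genes. The largest changes at 4 h were those of the scaffold Ksr1, with a log2 fold change of -0.92 ± 0.26 (SE) and ratios to the control of 0.423 in replicate 1 and 0.631 in replicate 2, and the adaptor Grb2, with 0.86 ± 0.17. Grb2 had 86.3 normalized CPM in the control and 155 and 158 in replicates 1 and 2, which were closely alike.

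The listed feedback inhibitors of ERK limit the pathway as phosphatases, Sprouty and Spred proteins, a receptor inhibitor or GTPase-activating proteins of RAS (Nf1 and Rasa1). Their summed level (14 of 15 listed genes in the files, all 14 tested) was 801 normalized CPM in the control, 1853 at 1 h, 1816 and 1121 in replicates 1 and 2 at 4 h and 802 at 8 h. At 1 h, 5 of the 14 had a higher level with an unadjusted p under 0.05 (all genes 2.1%) and 0 a lower one. At 4 h these numbers were 6 and 1, the lower one being Rasa1 (picked after its values were seen; all genes 7.21% and 4.38%), at 8 h 0 and 0 (2.39% and 2.12%), and edgeR called 0 after adjustment at each time point. Their median log2 fold changes were 0.29, 0.82 and 0.02 in the order of time, and at 4 h the median was 1.29 from replicate 1 alone and 0.48 from replicate 2 alone. The counting interval of replicate 1 over replicate 2 lay above 1 for 9 of the 14 and included 1 for the other 5 (Dusp7, Rasa1, Spred3, Spry1 and Dusp9, listed after their values were seen).

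Errfi1, an inhibitor of the EGF receptor, had 45.4 normalized CPM in the control, 540 at 1 h, 361 and 143 in the 4 h replicates and 55.2 at 8 h. Dusp4, a nuclear phosphatase of ERK, had 19.0 normalized CPM in the control, 60.8 at 1 h, 144 and 76.5 in the 4 h replicates and 25.3 at 8 h. Errfi1 was thus highest at 1 h and Dusp4, like Etv3, in both libraries of 4 h. The log2 fold change of Dusp4 at 4 h was 2.53 ± 0.43 (SE), with an adjusted p of 0.254 by edgeR (quasi-likelihood, Benjamini-Hochberg). Nf1 and Spred1, abundant inhibitors of RAS, had ratios to the control of 1.42 and 1.67 in replicate 1 and 1.11 and 1.36 in replicate 2. Dusp6, which was picked after its values were seen, had 63.0 normalized CPM in the control, 318 at 1 h, 147 and 47.2 in replicates 1 and 2 at 4 h and 48.8 at 8 h, so that the replicates lay on either side of the control.

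**Figure D5:**
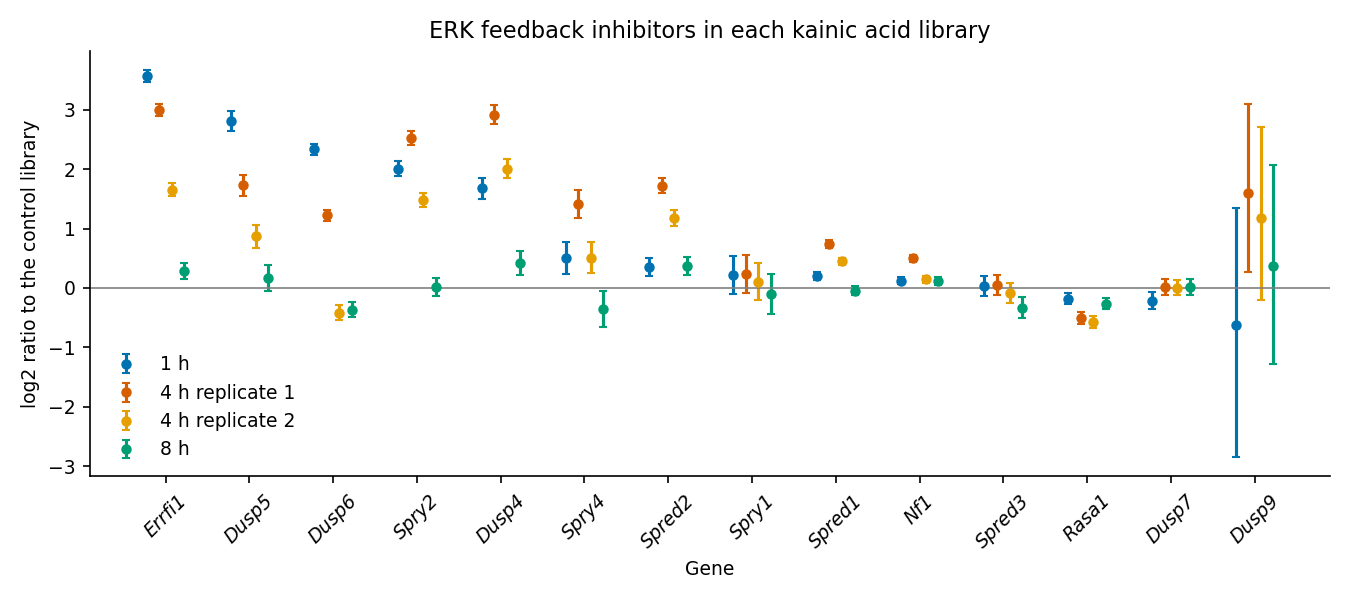
Log2 ratio of the normalized level to the control library (vertical axis) for the 14 feedback inhibitors of ERK in the files (horizontal axis, in the order of their value at 1 h), with 1 point per kainic acid library and exact 95% counting intervals as bars. Errfi1 reaches its highest value at 1 h and Dusp4 reaches its own in replicate 1 at 4 h, and most genes are near 0 at 8 h.

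Partners of ETS factors (15 of 17 listed names in the files, all tested) were near the control, with summed levels of 1239 normalized CPM in the control, 1305 at 1 h, 1343 and 1202 in the 4 h replicates and 1296 at 8 h. Unadjusted p values under 0.05 were found for 1 of 15 with a higher level at 1 h (all genes 2.1%), 1 with a lower level at 4 h (4.38%) and 2 with a higher level at 8 h (2.39%), and edgeR called 0 after adjustment. The gene at 1 h was Srf, the partner of the ternary complex factors, with 38.8 normalized CPM in the control and 99.5 at 1 h (picked after its values were seen). At 4 h the ratio to the control in replicates 1 and 2 was 0.981 and 0.884 for the corepressor Ncor1, 1.55 and 1.19 for the corepressor Sin3b, and 0.899 and 0.806 for Mrtfb, a coactivator of serum response factor. The largest change at 4 h was that of the histone deacetylase Hdac1, with 26.1 normalized CPM in the control and 12.9 and 17.5 in replicates 1 and 2. Gabpb1, the partner of GABPA, had 12.9 normalized CPM in the control, 13.4 at 1 h, 21.6 and 17.5 in the 4 h replicates and 24.0 at 8 h.

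PEA3 factors and ETS2 are broken down after ubiquitination by the COP1 ligase, which acts with Tribbles proteins and the DET1, DDB1 and CUL4A complex. Of this list 7 of 8 names were in the files and tested, and edgeR called 0 after adjustment. Their summed level was 545 normalized CPM in the control, 598 at 1 h, 734 and 635 in the 4 h replicates and 716 at 8 h. Higher levels with an unadjusted p under 0.05 were found for 1 of the 7 at 1 h (all genes 2.1%), 2 at 4 h (7.21%) and 1 at 8 h (2.39%). Cop1 had 84.9 normalized CPM in the control, 97.9 at 1 h, 285 and 164 in replicates 1 and 2 at 4 h and 113 at 8 h. Its log2 fold change at 4 h was 1.40 ± 0.36 (SE), with an adjusted p of 0.325 by edgeR (quasi-likelihood, Benjamini-Hochberg). Cop1 was therefore highest in the same libraries as Etv3, ETV3L and Ets2. Trib1 had 5.58 normalized CPM in the control, 50.1 at 1 h, 37.4 and 12.7 in the 4 h replicates and 6.50 at 8 h. At 4 h the ratio to the control in replicates 1 and 2 was 1.01 and 1.07 for Ddb1, the most abundant, and 0.716 and 0.851 for Cul4a. Trib2 (picked after its values were seen) was highest at 8 h, with 160 normalized CPM against 45.8 in the control.

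Markers of the other cell types of the tissue were compared as sums of normalized CPM in the control, at 1 h, in replicates 1 and 2 at 4 h and at 8 h. The 7 astrocyte markers, led by Slc1a2, summed to 4369, 4591, 5411, 5015 and 4719, and were highest in the 4 h replicates. Within this sum Gfap had 221, 272, 596, 510 and 587 normalized CPM and was thus lower in the control and at 1 h than in the 3 later libraries. Gja1 had 195, 175, 194, 202 and 98.6 (both picked after their values were seen). At 4 h all 7 were above 0 in edgeR's fit, and 3 were higher with an unadjusted p under 0.05, beside 7.21% of all genes. At 8 h, 4 of the 7 were above and 3 below 0. The 6 oligodendrocyte markers, led by Mbp, summed to 3199, 3994, 3785, 4876 and 3199, and were highest in replicate 2. In edgeR's fit all 6 were above 0 at 1 h and at 4 h, whereas 1 was above and 5 were below 0 at 8 h. The ratio to the control at 8 h was 1.41 for Mobp, the 1 above 0, and 0.682 for Mog (both picked after their values were seen). The 4 markers of oligodendrocyte precursors, led by Pdgfra, ranged from 128 to 173, and the 4 of pericytes and smooth muscle, led by Rgs5, from 104 to 125.5. The 6 blood markers, led by Hbb-bs, summed to 116, 100.2, 200, 132 and 156. None of these genes was at 0 in any library. Of the 11 neuronal markers, 3 were higher and 3 lower at 4 h with an unadjusted p under 0.05 in edgeR, beside 7.21% and 4.38% of all genes. The part of these cells in the levels of the ETS genes was not tested.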

How the data were processed

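The authors made stranded libraries of total RNA, and per the labels aligned the reads with STAR 2.5.1b to GRCm38.p4 and counted them per gene with HTSeq. The deposited values are whole-number counts without normalization. The annotation release and the strand setting of the counting are missing from the labels, so that overlapping genes on opposite strands cannot be told apart. Reads on no gene made up 24.7% of deposited reads in the control, 29.0% at 1 h, 33.1% and 25.3% in replicates 1 and 2 at 4 h and 30.9% at 8 h. Ambiguous reads amounted to 1.26% to 1.52%, and reads with several alignments to 9.67% to 11.6%. These lines were left out of library sizes and tests.

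Counts were analysed with edgeR 4.0.16 in R 4.3.3. The filterByExpr filter left 19768 of 55385 genes. TMM factors were 1.04, 0.992, 0.924, 0.991 and 1.06 in the order of the libraries above. A quasi-likelihood model with 4 conditions was fitted to all 5 libraries (biological coefficient of variation 0.238), with a prior count of 2 in the log2 fold changes. The standard error is the unshrunk coefficient divided by the root of the F statistic. Intervals were computed with scipy 1.17.1, and figures were drawn with matplotlib 3.10.9 in Python 3.11.15. Of the identifiers, 55144 were found in GENCODE M21, 54487 with the same version.

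The members and gene lists were chosen with earlier results of these data known. Genes could be named if they were among the 10 members, ETS genes with at least 10 counts in a library, the 3 annotated genes on either side of the pair, the 5 nearest genes in pattern to ETV3L and to Etv3, and of each pathway list the 3 most abundant genes and the 2 with the largest change at 4 h. Marker lists were given with their most abundant gene. Further genes of the pathway and marker lists were named after their values were seen, and the text marks them so. Results were repeated with median-of-ratios factors, with library size alone, with DESeq2 1.42.0, limma-voom (limma 3.58.1), an assumed biological coefficient of variation of 0.4 with a likelihood ratio test, no filter, at least 10 counts in every library, a smaller prior count, and leaving out each library of 4 h. Ratios between time points were added after the values were seen. Protein sequences were not analysed here.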

Additional observations from a re-analysis of the deposited data

Results flagged for a closer look

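Reads on no gene, which the comparisons do not use, took a larger share in every kainic acid library than the 24.7% of the control. The share was 29.0% at 1 h, 33.1% in replicate 1 and 25.3% in replicate 2 at 4 h, and 30.9% at 8 h. Replicate 1 at 4 h, which had the highest share, was also the library with the fewest choroid plexus reads and, of the pair at 4 h, the one with the higher level of each of the 12 activity-induced genes. The part of this share in the levels of ETS genes was not tested.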

How the results depend on the processing

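The number of genes called depended strongly on the setting. At 1 h, 4 h and 8 h in this order, it was 57, 237 and 22 with library size alone, 46, 216 and 31 with DESeq2, 40, 81 and 12 when a biological coefficient of variation of 0.4 was assumed, and 285, 1300 and 279 without a filter on low counts, compared with 0, 1 and 0. With at least 10 counts in every library it was 1 at 1 h and 0 at 4 h, and median-of-ratios factors and limma-voom gave 0 at 4 h. The prior degrees of freedom of edgeR were 4.42, 11.2 with library size alone, and infinite without a filter on low counts, the setting with the most calls. Library size alone shifted the median log2 fold change of all genes at 4 h by -0.12, and the share of higher levels among genes with an unadjusted p under 0.05 was then 48.0% in place of 62.2%. Of 297 alternative values for the log2 fold changes of the 10 members, 286 kept their side of the threshold or stayed within the replicate spread, 3 moved by more, and 8 passed an adjusted p under 0.05 only under the alternative. These 8 were ETV3L at 8 h in 4 settings and, without a filter, Etv3 at 1 h and 8 h, Erf at 1 h and Ets2 at 4 h. Those of ETV3L and Etv3 are a description, as both were selected over the same control library, in which ETV3L has 1 count. Signs were kept in all settings for each member and time, except that Etv6 at 4 h was at -0.01 without replicate 1. ETV3L gave no value with at least 10 counts in every library. Leaving out either library of 4 h leaves no replicates and hence no test. With 1 library in 3 of 4 conditions, animal variation at 1 h, 8 h and in the control is unknown, and counts under the floor cannot separate absence from low expression.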
